A study of Mus musculus with 8 samples.

Results

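The lysosomal genes described here are 42 genes for acid hydrolases and their activators, lysosomal membrane proteins and transporters, the vacuolar proton pump, and the transcription factors TFEB and TFE3. They were taken as a list of gene symbols, and 41 of them were found on the array by a probe set annotated to that gene alone, of 22180 genes measured in that way. Of those, 40 reached the level filter, a mean log2 value of at least 3.61 over all arrays, and were tested among 11090 genes. Glb1, the gene for beta-galactosidase, was on the array only in a probe set shared with Tmppe, and Tfeb lay below the filter.

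Epididymal white adipose tissue (eWAT), the visceral fat pad beside the epididymis, came from male Abhd15 knockout (KO) mice (n = 5) and wild type (WT) mice (n = 3). All mice were on the C57BL/6J background, ate normal chow, and were 14 weeks old when they were fasted overnight and given food again for 1 h before the tissue was frozen. Transcripts were measured on Affymetrix Mouse Gene 2.0 ST arrays, 1 per mouse, from 200 ng of RNA, and values are log2 RMA signals (background corrected, normalised across arrays and summarised per probe set). Abhd15 encodes a protein of fat cells with an alpha/beta hydrolase fold. Which stretch of the gene was deleted is not stated in the sources used here.

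Lysosomes are acidic compartments in which hydrolases break down proteins, glycans, lipids and worn organelles, and from which transporters return the products to the cytosol. The vacuolar ATPase keeps them acidic: its soluble V1 sector splits ATP and its membrane V0 sector carries the protons. TFEB and TFE3 switch on many of these genes together by binding a short DNA element called CLEAR, and nutrient signals after a meal hold both factors in the cytosol. In white fat, lysosomes of adipocytes help to degrade lipid droplets, and the lysosomes of resident macrophages take up lipid that adipocytes release.

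Slc46a3, a lysosomal membrane transporter, had the largest difference of the list. It read 1.58-fold higher in KO than in WT eWAT, and each of the 5 KO arrays lay above each of the 3 WT arrays. The other 39 tested members were spread around 0, with 19 higher and 20 lower in KO, a median log2 fold change of -0.001 and a range of -0.47 to 0.43. Npc1, the cholesterol transporter, and Atp6v1h, a regulatory subunit of the proton pump, were the lowest in KO. No member passed the adjusted threshold of 0.05 (limma, Benjamini-Hochberg over all tested genes), Slc46a3 included.

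Promoter sequences were searched for the CLEAR element, to set Slc46a3 beside the other members. The RefSeq table (GRCm38.p6) holds 250 bases before and 50 after the start of 35 of the 42 genes. It has no window for Ctsb, Ctsh, Asah1, Npc1, Atp6v1b2, Atp6v1c1 and Atp6v1h. The CLEAR core searched for was TCACGTGA, which holds the E-box core CACGTG, and both read the same on either strand. It occurred in 8 of the 35 windows (22.9%): those of Ctsa, Ctsd, Gla, Mcoln1, Cln3, Atp6v0d1, Atp6v0e and Atp6v1a. Windows of all 27025 listed genes held it in 1.12% of cases, and those of the 8758 tested genes with a window in 2.25%. The shorter CACGTG occurred in 14 member windows (40.0%), against 8.09% of all genes and 12.0% of the tested genes with a window. Many of these genes are known to be switched on through this element, so its larger share among members adds no independent result. The window of Slc46a3 holds neither string of letters. That does not set it apart, since 20 tested members with a window, Slc46a3 included, lack CACGTG. Only exact matches were searched.

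The stretches below are shown because they carry the element in a channel, a protease, a pump subunit and a membrane protein, with the CLEAR core in capitals. They lie at chr8:3500447-3500506 on the plus strand for Mcoln1, with the core starting 46 bases before the gene's start, and at chr7:142387893-142387952 on the minus strand for Ctsd, with the core 99 bases before it. The stretch of Atp6v1a is chr16:44139358-44139417 on the minus strand, 132 bases before the start, and that of Cln3 is chr7:126583325-126583384 on the minus strand, 122 bases before the start. For Slc46a3 the whole 250 bases before the start are given, chr5:147894816-147895065 on the minus strand. They are all in lower case since the exact string was not found there.
Mcoln1: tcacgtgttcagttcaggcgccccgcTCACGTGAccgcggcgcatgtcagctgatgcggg
Ctsd: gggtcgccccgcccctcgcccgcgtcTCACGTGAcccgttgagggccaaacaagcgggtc
Atp6v1a: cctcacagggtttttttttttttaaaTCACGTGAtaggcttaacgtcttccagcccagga
Cln3: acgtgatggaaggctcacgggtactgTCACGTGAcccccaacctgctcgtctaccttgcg
Slc46a3: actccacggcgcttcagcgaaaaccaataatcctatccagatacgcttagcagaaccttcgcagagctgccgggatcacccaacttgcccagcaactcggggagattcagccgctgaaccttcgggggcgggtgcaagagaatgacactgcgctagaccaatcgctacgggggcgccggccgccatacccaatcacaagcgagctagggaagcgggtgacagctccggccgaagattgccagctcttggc

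The 8 members with the CLEAR core had a median log2 fold change of 0.049, with 6 higher and 2 lower in KO and a range of -0.14 to 0.25. The 25 tested members whose window lacks it had a median of -0.009, with 11 higher and 14 lower. Both ranges overlap around 0, and no member with the element had an unadjusted p under 0.05. Of the members at that p, only Slc46a3 had a window to search, since Npc1 and Atp6v1h had none. A match of letters is a description of the sequence, and binding of a factor was not measured.

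Among the arrays, the targeted gene gave a partial check of the genotypes. Abhd15 read 5.77, 6.07, 6.27, 5.60 and 5.75 in KO 1 to KO 5, against 6.36, 6.45 and 6.14 in WT 1 to WT 3. KO 3 lay above WT 3, so the groups overlapped, and the log2 fold change of -0.43 (SE 0.17) had an adjusted p of 0.423 in limma and an exact permutation p of 0.0714. Whether the probes lie within the deleted part was not tested. Adipocyte markers were abundant in every array, with the mean of 11 genes at 9.85 to 10.39 in KO and 10.15 to 10.38 in WT. Of these 11, 3 were higher and 8 lower in KO, with a median log2 fold change of -0.123. Pparg (-0.47) was the 1 at an unadjusted p under 0.05 (limma), where 6.46% of all tested genes were lower. It was also the 1 with every KO below every WT value, against 5.54%. Other marker genes differed between arrays. The mean of 10 immediate early genes was 6.72 in KO 1 and 6.74 in KO 2, 4.83 to 5.70 in the other KO arrays, and 4.58 to 4.98 in WT. All 9 of these genes that were tested were higher in KO, with a median log2 fold change of 1.224. At an unadjusted p under 0.05 (limma) were 4 of them, where 4.04% of all tested genes were higher. Fosb had every KO value above every WT value, as did 2.99% of all tested genes. The mean of 13 genes of the epididymis and seminal vesicle was 4.57 in KO 4, 3.02 in WT 1 and 1.95 to 2.23 elsewhere. Seminal vesicle transcripts were higher in WT by group mean: Svs5 (4.78 against 2.06 in KO), Svs4 (3.36 against 1.90) and Svs2 (3.26 against 1.77). The rest of that list averaged higher in KO, as in Adam7 (4.51 against 1.77 in WT). The joint mean therefore does not tell these tissues apart. The mean of 6 testis genes was 6.74 in WT 1, 5.56 in WT 2, 5.21 in KO 4 and 4.07 to 4.77 elsewhere.

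Across all 11090 tested genes, none (0.0%) passed the adjusted threshold and the smallest adjusted p was 0.0752 (limma). At an unadjusted p under 0.05 there were 1164 genes, 10.5% of those tested, of which 38.5% were higher in KO; with each array centred on its median there were 978, of which 48.7% were higher. Against this background, 3 of the 40 tested members had an unadjusted p under 0.05 and none passed after adjustment. Slc46a3 was the 1 of them higher in KO, where 4.04% of all tested genes were, and Npc1 and Atp6v1h were the 2 lower, where 6.46% were. The count of 3 became 6 without KO 5, where 1596 of all 11090 genes were at that p. It became 1 without WT 1, where 745 were. With the replicate block (the replicate number as a factor in the fit) it was also 6, and 1997 of all genes were at that p. Those 6 members were Slc46a3, Npc2, Smpd1, Tpp1 and Gusb, higher in KO, and Tfe3, lower.

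All KO values lay above all WT values for Slc46a3 and Mcoln1, 2 of 40 members against 2.99% of all tested genes. All KO values lay below all WT values for Atp6v1h, 1 of 40 against 5.54%. Together the groups did not overlap for 3 members, against 8.53% of all tested genes. By sign alone, 20 of 40 members were higher in KO and 20 lower, with a median log2 fold change of 0.00, against 44.8% higher and a median of -0.028 over all tested genes. These shares of members are close to those of the array as a whole. The split by sign moved to 28 higher and 12 lower without KO 5, and to 29 and 11 with the replicate block.

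The members' differences were small beside the width of their intervals. The log2 fold change was under 0.2 in size for 32 of 40 members. The 95% interval from limma included 0 for 37 members and lay wholly within -0.5 and 0.5 for 23. For the rest, a difference past 0.5 on the log2 scale in some direction was within the interval. The median SD over members was 0.193 among KO arrays and 0.128 among WT arrays, and without KO 5 the KO value was 0.155.

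**Figure D1:**
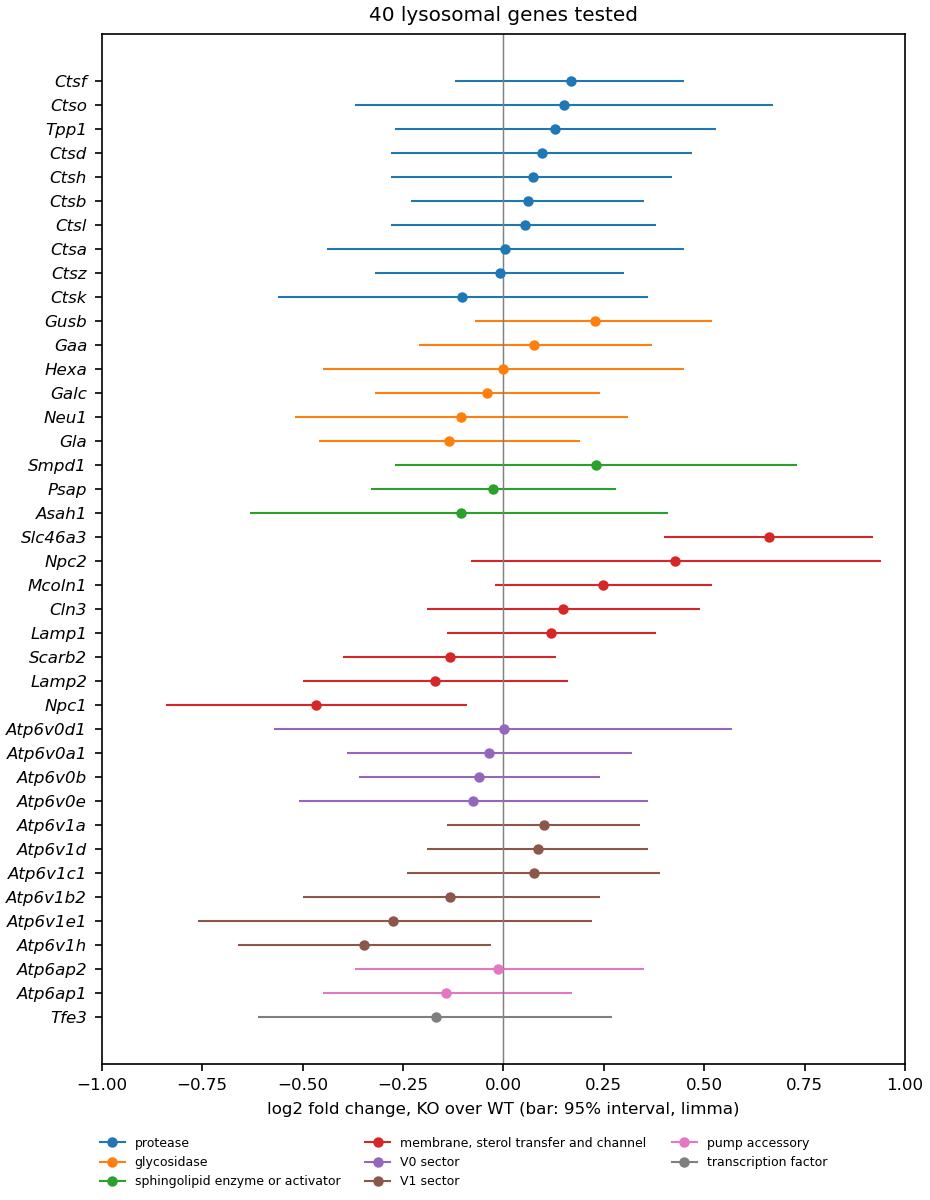
Log2 fold change (KO minus WT) of the 40 tested lysosomal genes on the x axis, 1 gene per line, with the 95% interval from limma, coloured by role. The point of Slc46a3 (0.66) lies to the right of the others, which run from -0.47 to 0.43, and 37 intervals include 0.

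Slc46a3 encodes a transporter of the lysosomal membrane, of the same family as the intestinal folate carrier Slc46a1, and is known for moving the breakdown product of certain antibody-drug conjugates out of lysosomes. It read 7.44, 7.23, 7.42, 7.52 and 7.45 in KO 1 to KO 5, against 6.83, 6.74 and 6.68 in WT 1 to WT 3. The lowest KO array, KO 2, lay above the highest WT array, WT 1. The means were 7.41 ± 0.11 in KO (SD, n = 5) and 6.75 ± 0.074 in WT (SD, n = 3). The log2 fold change was 0.66 (SE 0.12, 95% interval 0.40 to 0.92), with an adjusted p of 0.14 in limma and an unadjusted p of 0.000223. An exact permutation test (two-sided, 56 divisions of the arrays) gave p = 0.0357, the smallest that 5 against 3 arrays can give. The gene had drawn attention in earlier results of these arrays through its small p, so these values describe it and add no independent test.

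Without any 1 array the log2 fold change of Slc46a3 was between 0.62 and 0.71, and its unadjusted p was at most 0.00193. Its adjusted p depended on how arrays were weighted. With limma's array weights, which gave KO 5 a weight of 0.335 and WT 3 a weight of 1.84, it was 0.0388 and so past the threshold, and over all alternatives it ran from 0.0388 to 0.568. No other member passed in that fit. Counting Slc46a3 itself, 2.82% of all tested genes had a log2 fold change as large or larger in size, and 17 genes had an unadjusted p no larger.

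**Figure D2:**
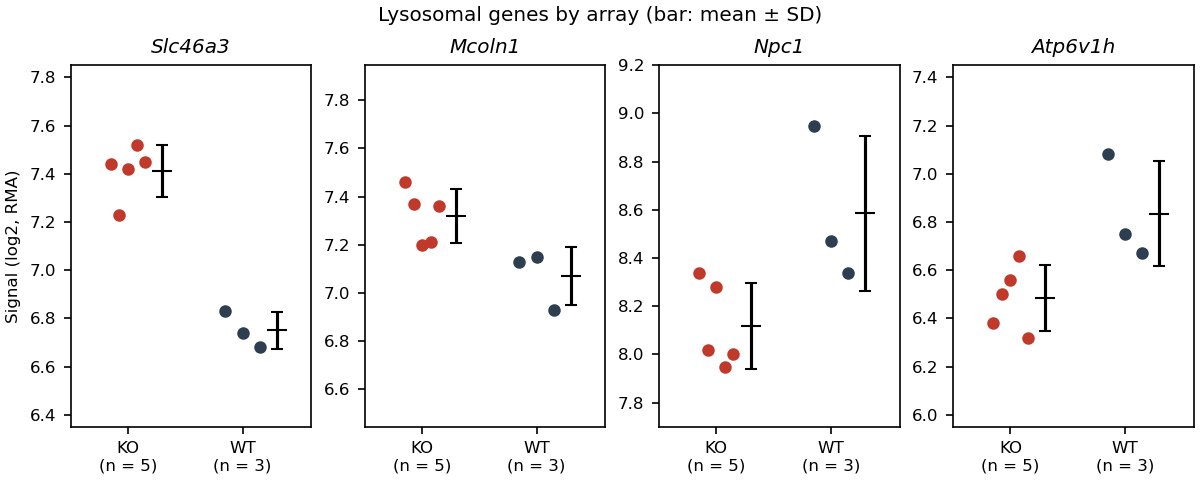
Log2 RMA signal of Slc46a3, Mcoln1, Npc1 and Atp6v1h in each array (points), KO left and WT right, with the mean and SD of each group. Slc46a3 and Mcoln1 have every KO point above every WT point, Atp6v1h has every KO point below every WT point, and the groups of Npc1 meet at 8.34 in KO 1 and WT 3.

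Slc46a3 was also set against the rest of the list within each array. Its deviation from its own mean over the 8 arrays was 0.27, 0.064, 0.25, 0.36 and 0.29 in KO 1 to KO 5, against -0.34, -0.42 and -0.48 in WT 1 to WT 3. The median deviation of the other 39 members from their own means was 0.073, 0.13, 0.028, -0.015 and -0.26 in KO 1 to KO 5, against 0.042, 0.012 and -0.07 in WT 1 to WT 3. Slc46a3 lay above that median in every KO array but KO 2, and below it in every WT array. The log2 fold change of Slc46a3 exceeded the median of the other members by 0.66, and by 0.58 to 0.75 with 1 array left out. No other member had a fold change as large in size.

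The proteases, 10 genes, read slightly higher in KO as a group by sign, 8 higher and 2 lower, with a median log2 fold change of 0.068 and a range of -0.10 to 0.17. No protease had an unadjusted p under 0.05 or groups without overlap. The sign count rested on a pair of KO arrays, KO 1 and KO 2, which had the highest means of the immediate early genes. Without both arrays it was 4 higher and 6 lower, with a median of -0.035. Without KO 4 or without KO 5 it was 9 higher and 1 lower. With the replicate block all 10 were higher, with a median of 0.202, and Tpp1 had an unadjusted p of 0.0314 (limma, adjusted p = 0.234).

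Ctsf, a cysteine cathepsin, had the highest protease fold change, 7.38, 7.33, 7.14, 7.06 and 7.08 in KO 1 to KO 5 against 7.03, 7.14 and 6.92 in WT 1 to WT 3 (log2 fold change 0.17, SE 0.13, adjusted p = 0.685 in limma). WT 2 lay at or above KO 3 to KO 5. At the other end was Ctsk, the collagen-cleaving cathepsin, with 5.49, 5.24, 5.23, 4.80 and 4.57 in KO 1 to KO 5 against 5.29, 5.20 and 5.01 in WT 1 to WT 3 (-0.10, SE 0.21). KO arrays lay on both sides of the WT arrays. Ctsd, the main aspartic protease of lysosomes, had 11.29 ± 0.27 in KO and 11.20 ± 0.13 in WT (SD, n = 5 and 3), a log2 fold change of 0.10. Ctsb and Ctsl, both widely expressed cysteine cathepsins, had log2 fold changes of 0.06 and 0.05, and the carboxypeptidases Ctsa and Ctsz had 0.00 and -0.01. Ctsh, an aminopeptidase, had 0.07, Tpp1, which removes tripeptides, had 0.13, and Ctso had 0.15. Their adjusted p ran from 0.833 upward.

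Glycosidases cleave sugars from glycolipids, glycogen and glycosaminoglycans, and of the 6 tested 2 were higher and 4 lower in KO (median -0.021). Gusb, which removes glucuronic acid, had 7.14, 7.38, 7.18, 7.21 and 6.88 in KO 1 to KO 5 against 6.91, 6.94 and 6.94 in WT 1 to WT 3. The values of 4 KO arrays lay above all WT arrays and KO 5 lay below them, and the log2 fold change was 0.23 (SE 0.13, adjusted p = 0.575 in limma). Gla, the alpha-galactosidase deficient in Fabry disease, had the lowest fold change, with 4.95, 5.15, 5.00, 4.68 and 4.71 in KO 1 to KO 5 against 4.95, 4.96 and 5.19 in WT 1 to WT 3 (-0.14, SE 0.15). The groups overlapped. Gaa, which degrades glycogen, had a log2 fold change of 0.08, Galc, which acts on galactosylceramide, -0.04, Neu1, the lysosomal sialidase, -0.11, and Hexa, a subunit of beta-hexosaminidase, 0.00.

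Glb1 was not tested, since its probe set is shared with Tmppe. That shared probe set read 5.56, 5.54, 5.40, 5.73 and 5.01 in KO 1 to KO 5, against 4.99, 5.20 and 5.09 in WT 1 to WT 3, a difference of 0.35. KO 5 lay within the WT values, and the signals of both genes cannot be told apart in that probe set.

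Among the sphingolipid enzymes, 1 of 3 was higher and 2 were lower in KO. Smpd1, acid sphingomyelinase, had 7.59, 7.48, 7.24, 7.07 and 6.51 in KO 1 to KO 5 against 6.97, 6.89 and 6.98 in WT 1 to WT 3. KO 1 to KO 4 lay above all WT arrays and KO 5 lay below them. Its log2 fold change was 0.23 (SE 0.22, adjusted p = 0.754 in limma), 0.40 without KO 5 and -0.01 without KO 1 and KO 2, and its dimmer probe set averaged 5.42 in KO and 5.43 in WT. Asah1, acid ceramidase, had 8.11, 8.03, 8.02, 7.91 and 7.05 in KO 1 to KO 5 against 7.91, 8.11 and 7.77 in WT 1 to WT 3. Its KO 5 value alone lay outside the range of the rest, and the log2 fold change of -0.11 became 0.09 without KO 5. Psap, the precursor of the saposins that present sphingolipids to these enzymes, had 11.09 ± 0.18 in KO and 11.11 ± 0.10 in WT (SD, n = 5 and 3).

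The 19 hydrolases and activators combined were 11 higher and 8 lower in KO, with a median log2 fold change of 0.054. Without KO 5 the count was 15 higher and 4 lower, with the replicate block 16 and 3, and without KO 1 and KO 2 it was 6 higher and 13 lower with a median of -0.028. The sign of the group therefore changed with which KO arrays were kept.

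Of the 7 membrane proteins other than Slc46a3, 4 were higher and 3 lower in KO, with a median log2 fold change of 0.118. The members of this group had the widest range of the roles, since it holds Npc1 at -0.47 and Npc2 at 0.43. NPC2 picks cholesterol out of the lysosomal lumen and hands it to NPC1, which passes it through the membrane.

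Npc1 read 8.34, 8.02, 8.28, 7.95 and 8.0 in KO 1 to KO 5, against 8.95, 8.47 and 8.34 in WT 1 to WT 3. KO 1 and WT 3 had nearly the same value, and WT 1 lay highest of all arrays. The means were 8.12 ± 0.18 in KO (SD, n = 5) and 8.59 ± 0.32 in WT (SD, n = 3), with -0.47 as the log2 fold change (SE 0.17, 95% interval -0.84 to -0.09). The adjusted p was 0.373 in limma, the unadjusted p 0.02 and the exact permutation p 0.0714. Without WT 1 the log2 fold change was -0.28. With the replicate block it was -0.37 and the unadjusted p 0.0509 (limma). A second, dim probe set of Npc1 averaged 2.44 in KO and 2.42 in WT, and with the mean of both probe sets the log2 fold change was -0.22.

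Npc2 read 10.21, 10.40, 10.06, 10.68 and 9.51 in KO 1 to KO 5, against 9.66, 9.85 and 9.71 in WT 1 to WT 3. The values of 4 KO arrays lay above all WT arrays and KO 5 lay below them. The log2 fold change was 0.43 (SE 0.23, adjusted p = 0.546 in limma), 0.59 without KO 5 (adjusted p = 0.185) and 0.30 without KO 4. NPC2 is also a secreted protein of the epididymis. KO 4, the array with the highest Npc2 value, also had the highest mean of the epididymal and seminal vesicle genes. The part of those tissues in the result was not tested. Npc2 and Atp6v1e1 below were chosen for a description array by array after their values were seen.

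Mcoln1, the calcium channel of the lysosomal membrane, read 7.46, 7.37, 7.20, 7.21 and 7.36 in KO 1 to KO 5, against 7.13, 7.15 and 6.93 in WT 1 to WT 3. The groups did not overlap, although KO 3 and KO 4 were close to WT 2. The log2 fold change was 0.25 (SE 0.12, 95% interval -0.02 to 0.52), or 1.19-fold, with an adjusted p of 0.506 in limma and an exact permutation p of 0.0357. Every gene whose groups do not overlap has this permutation p. Mcoln1 is described because its groups did not overlap, so the permutation p adds no test. Lamp1 and Lamp2, the most abundant glycoproteins of the lysosomal membrane, pointed in opposite directions, with log2 fold changes of 0.12 and -0.17. Scarb2, the receptor that carries glucocerebrosidase to lysosomes, had -0.13, and Cln3, the protein lost in juvenile Batten disease, had 0.15. The adjusted p of these 4 genes was between 0.721 and 0.768.

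The proton pump was represented by 12 genes, of which 4 were higher and 8 lower in KO, with a median log2 fold change of -0.047. That split rested on single arrays: it was 8 higher and 4 lower without KO 5, the same without WT 1 and with the replicate block, and 2 higher and 10 lower without WT 3 or without KO 1 and KO 2. With each array centred on its median it was 5 and 7.

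In the V0 sector, which passes protons through the membrane, 1 of 4 genes was higher and 3 were lower, all within -0.08 to 0.00. Atp6v0d1, which couples the membrane ring to the central stalk, had 9.35, 9.07, 8.96, 8.97 and 8.09 in KO 1 to KO 5 against 9.13, 8.90 and 8.63 in WT 1 to WT 3. KO 5 was the lowest array, and the log2 fold change of 0.00 (SE 0.26) became 0.20 without it. Atp6v0e had 9.22, 9.09, 9.14, 9.25 and 8.50 in KO 1 to KO 5 against 9.39, 9.08 and 8.88 in WT 1 to WT 3 (-0.08, SE 0.19). Again KO 5 alone lay below the WT arrays. Atp6v0a1, a large subunit of the proton path, and Atp6v0b, part of the proton-binding ring, had log2 fold changes of -0.03 and -0.06.

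In the V1 sector, which binds and splits ATP, 3 of 6 genes were higher and 3 lower. Atp6v1h, which regulates the joining of V1 with V0, read 6.38, 6.50, 6.56, 6.66 and 6.32 in KO 1 to KO 5, against 7.08, 6.75 and 6.67 in WT 1 to WT 3. The groups did not overlap, but KO 4 and WT 3 were nearly equal. The log2 fold change was -0.35 (SE 0.14, 95% interval -0.66 to -0.03), with an adjusted p of 0.431 in limma, an unadjusted p of 0.0336 and an exact permutation p of 0.0357. Without WT 1 it was -0.22, and with the replicate block it was -0.35 with an unadjusted p of 0.0695 (limma). The permutation p is the same for every gene whose groups do not overlap.

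Atp6v1e1, part of the peripheral stalk, had 8.56, 8.55, 8.31, 8.31 and 8.47 in KO 1 to KO 5 against 9.37, 8.35 and 8.43 in WT 1 to WT 3. WT 1 lay apart from all other arrays, and the log2 fold change of -0.27 became 0.05 without it. WT 1 was also the array with the highest testis markers, whose part in this value was not tested. Atp6v1a, the catalytic subunit, had the highest V1 fold change, with 7.60, 7.57, 7.51, 7.58 and 7.53 in KO 1 to KO 5 against 7.55, 7.43 and 7.40 in WT 1 to WT 3 (0.10, SE 0.11, adjusted p = 0.779 in limma). WT 1 lay within the KO values. Atp6v1b2, the other nucleotide-binding subunit, had -0.13, and Atp6v1c1 and Atp6v1d, of the stalks that join the sectors, had 0.08 and 0.09.

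The accessory subunits Atp6ap1 and Atp6ap2, both needed to assemble the pump, had log2 fold changes of -0.14 and -0.01. Atp6ap1 had 8.47, 8.58, 8.44, 8.54 and 8.08 in KO 1 to KO 5 against 8.59, 8.51 and 8.60 in WT 1 to WT 3. Atp6ap2, also known as the prorenin receptor, had 7.34, 7.08, 7.15, 6.88 and 6.84 in KO 1 to KO 5 against 7.32, 7.08 and 6.82 in WT 1 to WT 3, and its sign turned to 0.02 when arrays were centred. KO and WT arrays overlapped for both genes.

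The transcription factor Tfe3 had 6.98, 6.75, 6.68, 7.02 and 7.58 in KO 1 to KO 5, against 7.25, 7.03 and 7.23 in WT 1 to WT 3. KO 1 to KO 4 lay below all WT arrays and KO 5 above them, the reverse of the order of Gusb and Smpd1. Its log2 fold change was -0.17 (SE 0.20, adjusted p = 0.798 in limma) and -0.31 without KO 5. Tfeb averaged 3.04 ± 0.14 in KO and 3.02 ± 0.12 in WT (SD, n = 5 and 3), below the level filter, and was not tested. Where in the cell the factors lie, which governs their activity, is not measured by transcript arrays.

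**Figure D3:**
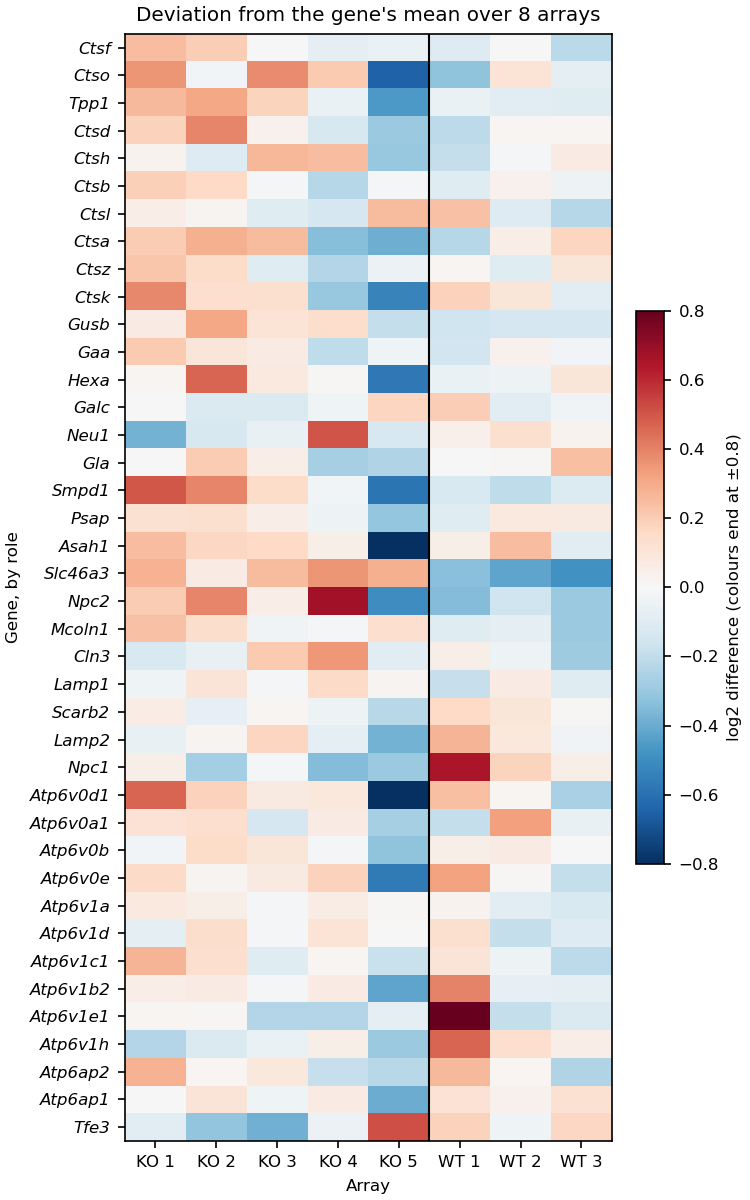
Heat map of the 40 tested lysosomal genes (lines) in the 8 arrays (columns, KO left and WT right), coloured by the deviation in log2 units from the gene's mean over all arrays, with colours ending at 0.8 in both directions. The KO 5 column is low over most enzymes and pump genes, and Slc46a3 is high in all KO columns.

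Single arrays stood apart across the list. KO 5 was the lowest of the 8 arrays for 21 of 40 members, 11 of 19 hydrolases and 7 of 12 pump genes, and for 28.9% of all tested genes. Its median deviation from the gene means was -0.30 over hydrolases, -0.28 over pump genes and -0.09 over all tested genes. KO 1 and KO 2 were at the other end, with median deviations of 0.20 and 0.16 over hydrolases, and were the highest arrays for 11 and 8 members. WT 1 was also highest for 8. Over all tested genes the share for which an array was highest was 17.2% for KO 1, 11.7% for KO 2 and 18% for WT 1.

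WT 1 split the roles, with a median deviation of -0.10 over hydrolases and 0.19 over pump genes. It was the highest array for 4 of 12 pump genes and 1 of 19 hydrolases. WT 2 and WT 3 lay between -0.11 and 0.01 in both. Over hydrolases the KO arrays spanned the WT arrays, and over pump genes WT 1 lay above every KO array. Slc46a3, at 0.06 to 0.36 in KO and -0.48 to -0.34 in WT, did not follow the order of the enzymes among the KO arrays.

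**Figure D4:**
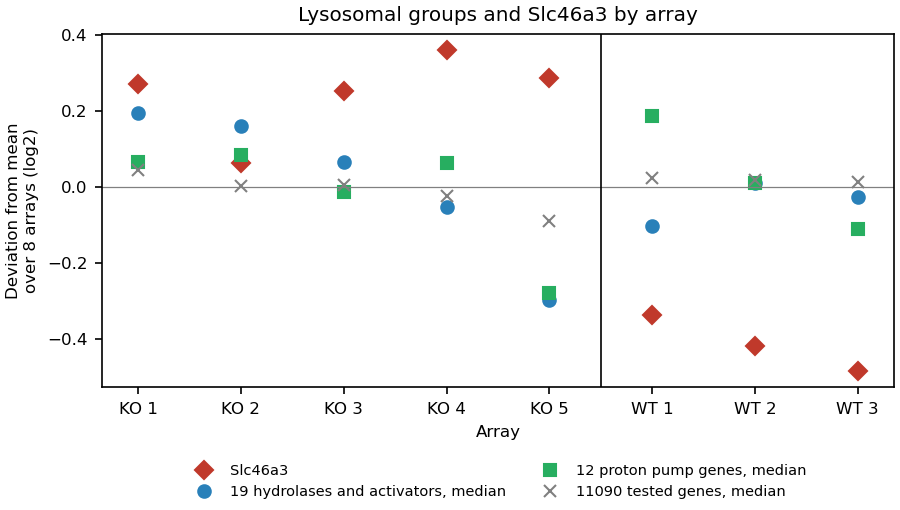
Deviation from the gene mean over all arrays (log2 units, y axis) in each array (x axis, KO left and WT right), shown for Slc46a3 and as medians over 19 hydrolases, 12 proton pump genes and all 11090 tested genes. Slc46a3 is above 0 in each KO array and below 0 in all WT arrays, while the hydrolase and pump medians fall to -0.30 and -0.28 in KO 5.

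Macrophages are a rich source of lysosomal transcripts in fat, so their markers are given beside the members. The mean of 18 macrophage genes was 6.93, 6.94, 6.90, 6.50 and 6.50 in KO 1 to KO 5, against 6.69, 6.84 and 6.80 in WT 1 to WT 3. It was lowest in KO 4 and KO 5 and highest in KO 1 to KO 3, and of these genes 7 were higher and 11 lower in KO, none with an unadjusted p under 0.05. The smallest p were those of Cx3cr1, the fractalkine receptor (log2 fold change 0.45), Lyz2, the macrophage lysozyme (-0.24), Cd14, a receptor for bacterial lipid (-0.37), and C1qa, a complement subunit (-0.28). Hydrolases and macrophage markers were both low in KO 5 and both high in KO 1 and KO 2. In KO 4 the macrophage mean equalled that of KO 5, while the median deviation of hydrolases was -0.05, against -0.30 in KO 5. The mean of 11 adipocyte genes was 10.39, 10.34, 10.16, 9.99 and 9.85 in KO 1 to KO 5. In WT 1 to WT 3 it was 10.15, 10.38 and 10.31. The part of these cell types in the sign counts was not tested. In whole tissue, fewer cells of a type and less RNA per cell cannot be told apart. The mean of 9 fibroblast genes was 8.74, 8.83, 8.74, 8.47 and 8.39 in KO 1 to KO 5. In WT 1 to WT 3 it was 8.47, 8.82 and 8.69. Of 10 endothelial genes, 9 were lower in KO (median log2 fold change -0.45), 5 of them at an unadjusted p under 0.05 against 6.46% of all tested genes, and Kdr without overlap; their part in the members' values was not tested.

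Genes outside the list give the setting of these values. They were grouped from knowledge of the pathway, and up to 4 genes of smallest unadjusted p are named in each. Of 34 other lysosomal hydrolases, 24 were higher and 10 lower in KO, with a median log2 fold change of 0.185, 4 at an unadjusted p under 0.05, all higher (4.04% of all tested genes), and 2 with every KO above every WT value (2.99% of all). Those 4 were Naglu (0.57), which degrades heparan sulfate, Galns (0.53), which removes sulfate from keratan sulfate, Aga (0.37), which splits the bond between glycans and asparagine, and Glmp (0.31), which partners a lysosomal transporter; their adjusted p was 0.313 to 0.45 in limma. The count of 4 was 8 without KO 5, 2 without KO 2, 1 without WT 1 and 13 with the replicate block. Over all 11090 tested genes, 1596, 890, 745 and 1997 were at that p in the same fits, against 1164 as reported. Of these genes, 48.1%, 37.5%, 36.1% and 53.6% were higher in KO, against 38.5% as reported. Without KO 1 and KO 2 the list had 20 higher and 14 lower and a median of 0.063.

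Naglu read 6.39, 6.57, 6.09, 6.34 and 6.56 in KO 1 to KO 5, against 5.50, 5.88 and 6.08 in WT 1 to WT 3. Galns read 5.72, 5.99, 5.45, 5.12 and 5.44 in KO 1 to KO 5, against 4.96, 5.04 and 5.04 in WT 1 to WT 3. For both, all KO arrays lay above all WT arrays, although in Naglu KO 3 and WT 3 were nearly equal.

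Of 39 other membrane proteins and transporters, 18 were higher and 21 lower, with a median of -0.004. Their log2 fold changes ran from -0.56 to 0.71, past the 0.66 of Slc46a3. At an unadjusted p under 0.05, 3 were higher and 1 lower. Over all tested genes that share was 10.5% in either direction, so the 4 of 39 are near the background. Slc46a1, the folate carrier of the same family as Slc46a3, was 1 of the 3, with 5.29, 5.66, 5.23, 5.70 and 5.30 in KO 1 to KO 5 against 4.50, 4.98 and 5.19 in WT 1 to WT 3. All KO arrays lay above all WT arrays, with KO 3 and WT 3 close to each other (log2 fold change 0.55, SE 0.19, adjusted p = 0.352 in limma). Cln6, an endoplasmic reticulum protein needed for enzyme delivery, had 0.58, Ctns, the cystine exporter, 0.38 and Slc11a2, an iron transporter, -0.56.

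Of 16 other proton pump genes, 6 were higher and 10 lower (median -0.035), with 1 higher and 3 lower at an unadjusted p under 0.05 (10.5% of all tested genes in either direction). The groups of these 4 did not overlap (8.53% of all tested genes). Rnasek, a small membrane protein of the pump, had 9.12, 9.21, 8.95, 9.0 and 9.22 in KO 1 to KO 5 against 8.59, 8.56 and 8.62 in WT 1 to WT 3 (log2 fold change 0.51, SE 0.12, adjusted p = 0.225 in limma). Dmxl2, a part of the complex that assembles V1 with V0, had 7.13, 7.06, 7.02, 6.82 and 6.58 in KO 1 to KO 5 against 7.40, 7.49 and 7.51 in WT 1 to WT 3 (-0.54, SE 0.15). The groups of both genes lay apart, and the KO arrays of Dmxl2 were more spread than its WT arrays. Tcirg1, the V0 subunit known from osteoclasts, had -0.32, and Ncoa7, which binds the pump, had -0.41.

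Of 28 genes that sort enzymes to the lysosome, 16 were higher and 12 lower (median 0.027), with 2 at an unadjusted p under 0.05 (10.5% of all tested genes), the sorting receptors Sorl1 (0.62) and Sort1 (0.37), both higher. Vps39, a tethering subunit, had 0.25 and Lyst, a regulator of lysosome size, had -0.17. Of 22 genes of nutrient sensing at the lysosome, 9 were higher and 13 lower (median -0.114), none at an unadjusted p under 0.05. The GTPases Rraga (-0.28) and Rheb (-0.33), the scaffold subunit Lamtor2 (0.25) and the Rag regulator Flcn (-0.19) had the smallest p.

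Of 30 autophagy genes, 10 were higher and 20 lower (median -0.048), with 3 at an unadjusted p under 0.05, all lower and with groups that did not overlap. Over all tested genes, 6.46% were lower at that p and 5.54% had every KO below every WT value. The 3 were Plekhm1 (-0.56), which joins autophagosomes to lysosomes, Gabarapl1 (-0.47), a protein of the autophagosome membrane, and Atg9a (-0.34), a lipid scramblase. Nbr1, a cargo receptor, had -0.35. Without WT 1 the list had 16 higher and 14 lower, and 1 gene lower and 1 higher at an unadjusted p under 0.05.

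**Figure D5:**
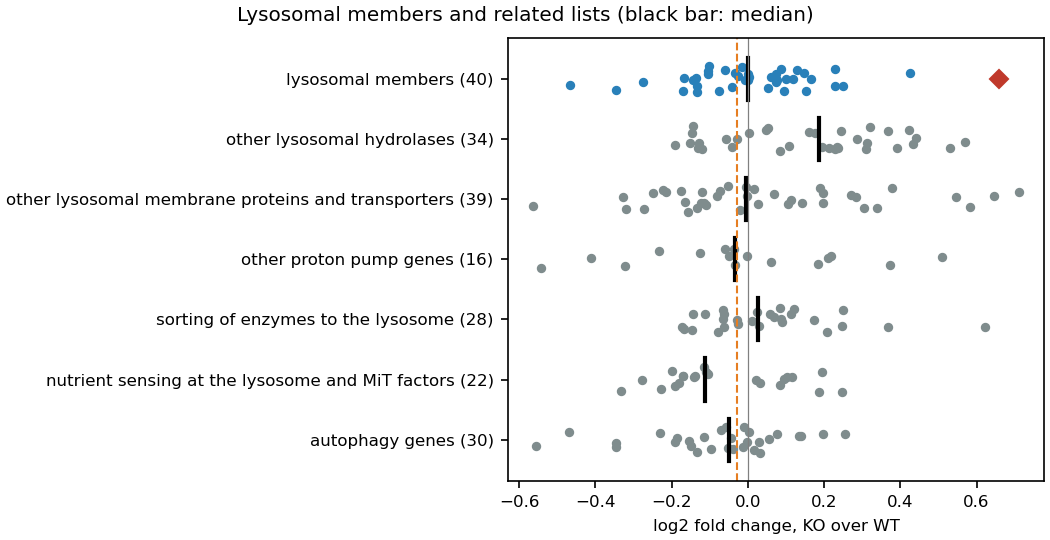
Log2 fold change (KO minus WT) of the tested lysosomal members and of 6 related gene lists, 1 point per gene, with a black bar at each list's median and a dashed line at the median of all tested genes (-0.028). The red diamond is Slc46a3 (0.66), and the other hydrolases have the highest median (0.185) and the nutrient sensing genes the lowest (-0.114).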

How the data were processed

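The deposited values are log2 signals per probe set of 8 arrays, 1 per mouse, with genotype and replicate number taken from the sample titles. The authors made them with RMA, and the package oligo is also named, per the submitters' processing notes. Expression Console appears in the design text, and which tool made the values is not settled. Not given in the sources used here were versions, filters and the genome build. The values were used as deposited. Array medians lay between 2.93 and 3.12, and arrays carry no counts, so their number limits the precision.

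Of 41345 probe sets, 23521 were annotated to 1 gene symbol, 1814 to several and 16010 to none listed, and 23328 were matched by Entrez identifier to RefSeq (GRCm38.p6) for current symbols. The probe set with the highest mean over 8 arrays was kept for each gene, which left 22180 genes (1082 had several). The brighter 11090, from the median gene mean (3.61) upward, were tested. The kept probe set decided the value of 3 members: Smpd1, Npc1 and Atp6v1b2.

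Differences between KO and WT were fitted with limma 3.58.1 in R 4.3.3 (functions lmFit and eBayes). Its two-sided p-values were adjusted by Benjamini-Hochberg across the tested genes, with 0.05 as the threshold. For single genes an exact permutation test, two-sided, used the 56 divisions of the arrays. Lists are described by counts and medians beside those of all tested genes. The procedure was tested on simulated data. Summaries and figures used Python 3.11.15, numpy 2.4.6, pandas 2.3.3 and matplotlib 3.10.9. The replicates are separate mice.

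The members and lists were chosen with earlier results of these data known, in which Slc46a3 had been named for its small unadjusted p. All members are accounted for. Slc46a3, members with an unadjusted p under 0.05 or groups without overlap, and the highest and lowest fold change of each role are given by array; of other lists, up to 4 genes of smallest p are named, and Abhd15 always. Alternatives changed the level filter, the probe set, the centring, the array weights, the prior, the replicate block and the arrays kept, and the fit without KO 5 and WT 1 was chosen after seeing the data.

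KO and WT share the replicate numbers 1 to 3, taken from the titles, with no word in the sources on their meaning. Arrays of one number deviated from their group means together, with correlations of 0.133, 0.103 and 0.192 over the tested genes. These were not set against correlations of arrays with different numbers, so whether the numbers pair the mice is not settled. The reported fit has genotype only. The replicate block is given as an alternative, and it draws its contrast from KO 1 to KO 3.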

Additional observations from a re-analysis of the deposited data

Results flagged for a closer look

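In 4 genes the KO 5 value lay far below the other KO arrays, by a rule that compares the gap to the nearest array with the range of the group. Asah1 read 7.05 in KO 5, against 7.91 to 8.11 in the other KO arrays. Atp6v0e read 8.50 in KO 5, against 9.09 to 9.25. Atp6v1b2 read 8.43 in KO 5, against 8.84 to 8.92, and Atp6ap1 read 8.08, against 8.44 to 8.58. All 4 encode a ceramidase or parts of the proton pump. They were found among 43 groups of KO values, of which chance flags about 1 in 20.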

How the results depend on the processing

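Of the values recomputed under the alternatives, 398 kept their direction and their side of the threshold or stayed within the spread, 30 changed sign, 21 moved and 1 passed the threshold; the cause was not tested. No gene passed at the adjusted threshold among all tested genes as reported, against 40 with array weights, 2 with the replicate block, 3 with a trended and robust prior, 1 without KO 5 and WT 1, and 0 to 5 with 1 array left out (5 without KO 5). Genes at an unadjusted p under 0.05 numbered 1873 with array weights, 1871 without a level filter, 1997 with the replicate block, 732 without KO 4 and WT 1, and 745 to 1596 with 1 array left out. Of the members, 1 (Slc46a3, adjusted p = 0.0388 in limma) passed with array weights and 0 with any 1 array left out. Members at an unadjusted p under 0.05 numbered 6 with array weights, 6 with the replicate block, 1 without KO 4 and WT 1, and 1 to 6 with 1 array left out. Members higher in KO numbered 13 without KO 1 and KO 2 and 18 to 28 with 1 array left out. Members lower in KO numbered 11 with array weights, 11 with the replicate block, 12 without KO 5 and WT 1, and 12 to 22 with 1 array left out. The members' median log2 fold change was -0.033 to 0.078 with 1 array left out, and the excess of Slc46a3 over it 0.582 to 0.749. Abhd15 was lower in KO in all alternatives, at -0.563 to -0.284, and at -0.523 to -0.356 with 1 array left out.

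Over all alternatives the sign turned in 24 of the 40 tested members, among them 6 of the 16 described by rule. Asah1 had 0.022 with array weights, 0.122 with the replicate block, 0.076 without KO 5 and WT 1, and -0.185 to 0.087 with 1 array left out. Atp6ap2 had 0.094 with array weights, 0.019 when centred, 0.118 with the replicate block, 0.151 without KO 4 and WT 1, 0.161 without KO 5 and WT 1, and -0.14 to 0.106 with 1 array left out. Atp6v0e had 0.071 with array weights, 0.034 with the replicate block, 0.01 without KO 4 and WT 1, 0.196 without KO 5 and WT 1, and -0.194 to 0.061 with 1 array left out. Ctsk had 0.036, 0.155, 0.028 and 0.086 in the same order, and -0.208 to 0.024. Atp6v0d1 had -0.214 and Smpd1 -0.009 without KO 1 and KO 2, and -0.128 to 0.2 and 0.127 to 0.397 with 1 array left out. The replicate block changed no adjusted call of a member. Signals near background, such as Tfeb and the dim probe sets, limit what a fold change can show.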

Other observations

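Some relatives of the members lay below the level filter and were high in a single array. Slc46a2, of the same transporter family as Slc46a3, read 5.25 in KO 4 and 1.82 to 2.38 in the other 7 arrays. The pump subunit genes Atp6v1c2 and Atp6v1g3 read 4.47 and 3.32 in KO 4, against 1.92 to 2.34 and 1.32 to 1.94 in the others. Rragb, a GTPase of nutrient sensing, read 3.90 in KO 4 and 2.02 to 2.79 in the others. KO 4 was also the array in which the mean of 13 epididymal and seminal vesicle markers was 4.57. The part of those tissues in these values was not tested. These genes were chosen after their values were seen, and none was tested between KO and WT.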
